A study of Danio rerio with 6 samples.

Results

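The genes described here are the cytosolic and mitochondrial molecular chaperones, their co-chaperones and the heat shock factors, followed in zebrafish brain after a few hours of low oxygen. They came from a list of 40 genes and were taken where the array's annotation gave a row to that gene alone. By that rule 35 of the 40 were measured, out of 19260 genes in all. The 4 inducible HSP70 genes hsp70l, hsp70.1, hsp70.2 and hsp70.3, together with hspa4a, were named only on rows that join several genes and so have no value of their own. The measured genes fell into 9 classes by role, namely 7 small heat shock proteins, 3 cytosolic HSP70 genes, 3 HSP110 genes, 3 HSP90 genes, 6 HSP40 genes, 3 mitochondrial chaperones, 6 co-chaperones, 2 collagen chaperones and 2 heat shock factors. Chaperones of the endoplasmic reticulum were left out of the list, except for the serpinh1 copies, whose products work there on collagen.

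RNA was measured from 6 adult zebrafish (Danio rerio, Tübingen strain, age about 1 year, sex not specified), with 1 whole brain per Affymetrix Zebrafish Gene 1.0 ST array. In the hypoxia group 3 fish spent 3 h in water bubbled with nitrogen to a dissolved oxygen of 1.20 ± 0.6 mg/l. The normoxia group held 3 fish at the ambient level of 6.6 ± 0.45 mg/l, and the labels do not say what these errors are. The fish, called hypoxia 1 to 3 and normoxia 1 to 3, are described by the submitters as biological replicates, and no genotype or other agent is stated for either group. Values are the deposited log2 values, so that 1 unit is a doubling, and a difference is always hypoxia minus normoxia. The comparison asks which chaperone transcripts differ in the brain after exposure to low oxygen.

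Chaperones bind proteins that are unfolded or only partly folded. HSP70 works in cycles that HSP40 proteins start and that HSP110 and BAG proteins end by nucleotide exchange. HSP90 receives clients such as steroid receptors and kinases from HSP70 through adaptor proteins. Small heat shock proteins hold denatured proteins without using ATP, and HSP60 with its lid HSP10 folds proteins imported into mitochondria. Heat shock factor 1 switches on many of these genes when unfolded protein builds up, while several of the members, hspa8 and hsp90ab1 among them, are known as abundant constitutive genes.

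The arrays differed in ways that touch every value below. Over the 19260 genes the array medians ran from 7.32 to 7.60 and the interquartile ranges from 1.52 in hypoxia 1 and normoxia 2 to 2.28 in normoxia 1, which stands apart as the array with the widest spread. A wide spread puts bright genes higher and dim genes lower on that array. The median log2 difference of all genes was -0.08, and 61% of genes had a lower mean in hypoxia, or 76.8% of the 9630 genes above the median level. The tissue markers fitted the label, with 10 measured neuronal genes at a mean log2 level of 9.99 to 10.68 per fish and lens genes at 5.49 to 6.21. Glial markers leaned lower in hypoxia, as most bright genes did. In the brightest of 10 bands of level, at a mean of 10.06, 78.3% of all genes were lower, with a median difference of -0.20. The neuronal genes were lower in 6 of 10, with a median difference of -0.065 (-0.21 without normoxia 2, 0.06 without hypoxia 1). Radial glia and astroglia markers were lower in 5 of 6, with a median difference of -0.59 (-0.22 without normoxia 3, -0.87 without normoxia 2) and mean levels of 10.03 to 10.55 in hypoxia against 10.30 to 11.30 in normoxia, the highest being normoxia 3. Oligodendrocyte and myelin markers were lower in 5 of 6, with a median of -0.30 (-0.16 without normoxia 1, -0.52 without normoxia 2) and mean levels of 9.46 to 9.61 against 9.43 to 10.18. The part of glial RNA in the chaperone values was not tested. Precision rests on 3 fish per group, and in a whole brain fewer cells of a type and less RNA per cell cannot be told apart.

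Most chaperone genes had lower means in hypoxia, as did most genes of the array, and none passed the test. Of the 35 measured genes 24 were lower (68.6%) and 11 higher, where all genes had 61% lower and 38.5% higher. Among genes above the median level 76.8% were lower. The members had a median log2 difference of -0.25, against -0.08 for all genes and -0.17 for those above the median level. In limma, with Benjamini-Hochberg adjustment over all 19260 genes, 0 members passed 0.05 in either direction, against 0.00519% of all genes. The smallest adjusted p of a member was 0.72, shared by 7 of them. At an unadjusted p under 0.05 there were 5 members, all lower (hspb6, cryabb, chordc1b, serpinh1a and hsf2), which is 14.3% of them against 5.76% of all genes and 8.4% of genes above the median level. Among all genes 0.903% were higher at that p, and 0 members were. The values of the 2 groups did not overlap in 7 members, these 5 with hspb11 and hspe1, again all lower. That is 20% of members, against 9.01% of all genes and 11.7% of those above the median level. Non-overlap in the other direction was found in 0 members and in 2.33% of all genes. The standard error of a member's difference ranged from 0.17 to 0.47. The difference was within 1 standard error in 11 members and over 2 in 7. The shares of all genes at these cuts are not given here, so these 2 counts only describe the members.

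**Figure D1:**
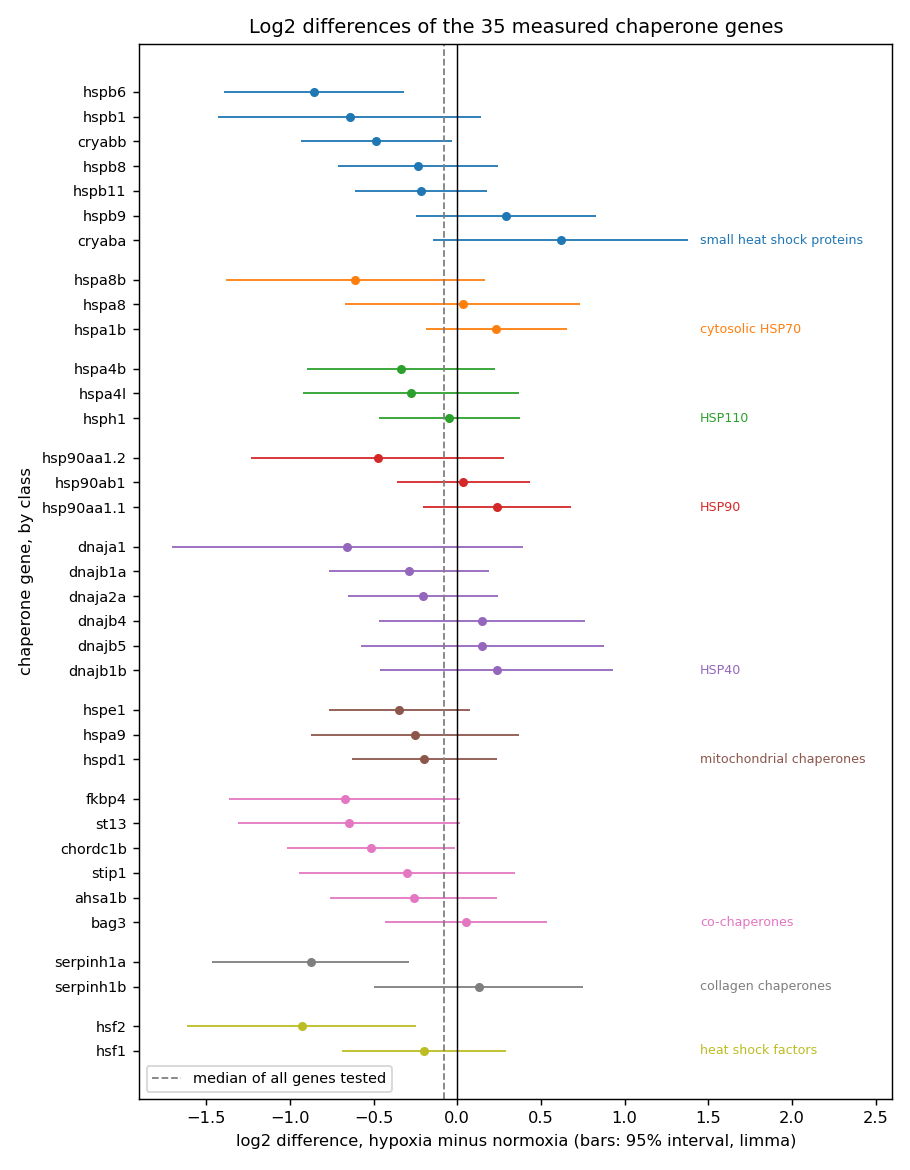
Log2 difference between hypoxia and normoxia (horizontal axis) for each of the 35 measured chaperone genes, grouped and coloured by class, with bars for the 95% interval from limma over 3 fish per group and a dashed line at the median of all genes. The intervals of hspb6, cryabb, chordc1b, serpinh1a and hsf2 lie below 0 before adjustment, and those of the other 30 genes cross it.

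The size of this lean depended on single fish and on scaling. In 28 of the 35 members leaving out 1 fish moved the difference by over 1.5 times or turned its sign. The share of all genes that moved so far is not given here, so this is no trait of chaperones. The median of all genes moved too, from -0.08 with all fish to -0.13 without normoxia 2 and -0.04 without normoxia 1. The median of the 35 members was -0.14 without hypoxia 1 and -0.16 without normoxia 1, but -0.38 without normoxia 2. Without normoxia 2 the smallest adjusted limma p of a member was 0.0883, so that 0 members passed there as well. Among all genes 17 passed in that setting, against 1 with all fish. Without hypoxia 3, 30 of the 35 were lower in hypoxia. Quantile normalization of the gene values gave a median of -0.07 with 21 lower and 14 higher, beside a median of 0.01 for all genes, and array spread as a covariate gave -0.08.

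Small heat shock proteins, the holding chaperones, had lower means in hypoxia in 5 of 7 genes, with opposite values in hspb9 and cryaba. That is 71.4%, beside 61% of all genes and 76.8% of those above the median level. The median log2 difference was -0.23 (-0.35 without normoxia 2, -0.21 without normoxia 1, -0.09 with equal array medians). Of the further small heat shock genes outside the member list, 2 were lower and 3 higher. hspb6, which encodes HSP20, a partner of contractile and cytoskeletal proteins, was 6.94, 7.47 and 7.27 in hypoxia 1, 2 and 3 and 8.47, 7.75 and 8.03 in normoxia 1, 2 and 3. All 3 hypoxia brains lay below all 3 normoxia brains. Its mean was 7.23 ± 0.27 against 8.08 ± 0.36 (SD, n = 3 each). The difference of -0.86 (SE 0.24, limma adjusted p = 0.72) makes hypoxia 1.81-fold lower. With 1 fish left out it ran from -1.02 to -0.66, and after quantile normalization it was -0.71.

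The copies of the alpha B crystallin gene took opposite sides. cryabb, the more broadly expressed copy in zebrafish, was 7.90, 7.73 and 7.48 in hypoxia against 8.41, 7.99 and 8.16 in normoxia. The groups did not overlap, and the difference was -0.48 (SE 0.20, limma adjusted p = 0.72). cryaba, the copy known mainly from the lens, was 7.61, 7.54 and 6.95 in hypoxia against 6.03, 7.38 and 6.84 in normoxia. Its highest values were in hypoxia 1 and 2 and its lowest was in normoxia 1, with normoxia 2 inside the hypoxia range. The cryaba difference of 0.62 (SE 0.34, limma adjusted p = 0.725) became 0.26 without normoxia 1, 0.93 without normoxia 2 and 0.18 with array spread as a covariate. Lens markers leaned the same way, with 9 of 12 higher in hypoxia and a median difference of 0.15 (0.03 without normoxia 1, 0.40 without normoxia 2). Their mean levels were 5.83 to 6.21 in hypoxia and 5.49 to 6.17 in normoxia, and 9 of the 12 had their lowest value in normoxia 1. Dim genes in general leaned this way, and the lens markers had a mean level of 5.885. With all genes cut into bands of equal size by level, the dimmest bands had mean levels of 5.278 and 6.214. In these bands 35.3% and 31.2% of genes were lower in hypoxia. Normoxia 1 was the lowest fish in 3354 of the 9630 genes at or below the median level. The part of lens RNA in the cryaba values was not tested.

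hspb1, which encodes HSP27, a chaperone that binds actin, was 9.09, 9.43 and 9.75 in hypoxia against 9.89, 9.44 and 10.87 in normoxia. Normoxia 3 stood well above the other 5 fish, and the difference of -0.64 (SE 0.35) became -0.24 without it. Normoxia 3 was also the fish with the highest mean of the radial glia and astroglia markers. hspb8, the partner of bag3 in the disposal of damaged proteins, had overlapping groups and a difference of -0.23. hspb11 had a narrow range, 7.33 to 7.55 in hypoxia and 7.57 to 7.78 in normoxia, so that its groups were narrowly apart at a difference of -0.22. hspb9 was dim, its 2 rows at 4.23 to 5.69 and 6.00 to 6.40, and both rows were higher in hypoxia by 0.43 and 0.15.

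**Figure D2:**
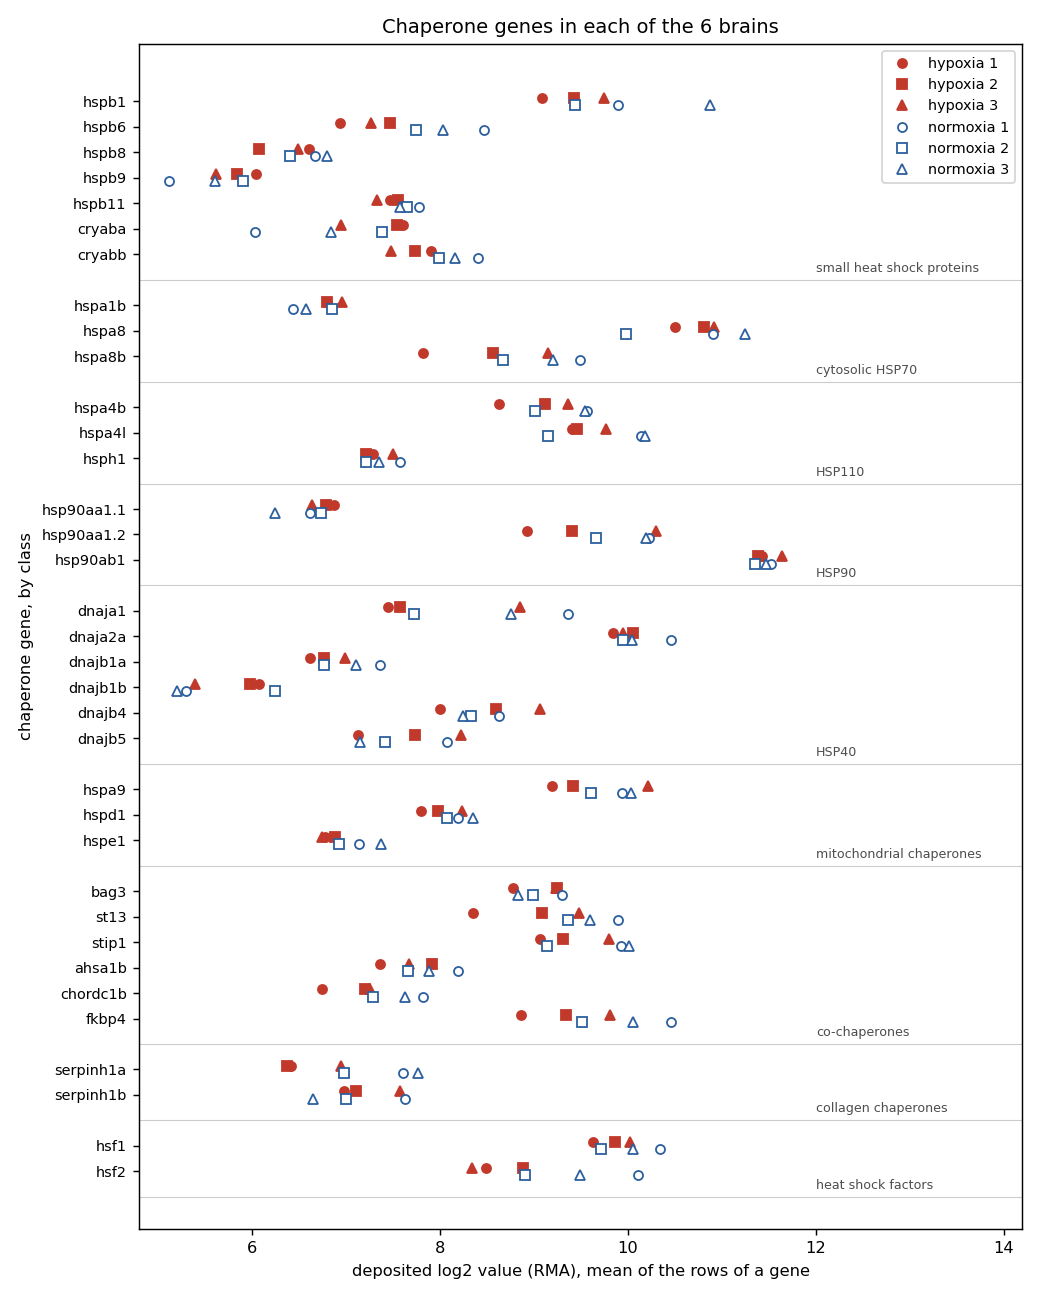
Deposited log2 value (horizontal axis) of each measured chaperone gene in each of the 6 brains, grouped by class, with filled red symbols for hypoxia, open blue symbols for normoxia and the symbol shape giving the fish number. The groups separate in hspb6, hspb11, cryabb, hspe1, chordc1b, serpinh1a and hsf2. In the other 28 genes hypoxia 1 is at the left end in 17, and hypoxia 3 lies within the normoxia range in 22.

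Cytosolic HSP70 was represented by the constitutive genes and by hspa1b. hspa8 encodes HSC70, the constitutive HSP70 that also strips clathrin from vesicles, and it was among the brightest genes of the array. The brighter of its 2 rows was 11.81, 12.06 and 12.20 in hypoxia against 12.17, 12.06 and 12.13 in normoxia, a difference of -0.10. The other row had 7.91 in normoxia 2 and 9.20 to 10.37 in the remaining fish, with a difference of 0.16. The 2 rows thus disagreed in sign, and the mean of both gave 0.03 with a 95% interval of -0.67 to 0.73. hspa8b, an HSP70 gene close to hspa8, was 7.82, 8.56 and 9.15 in hypoxia against 9.49, 8.67 and 9.20 in normoxia, a difference of -0.61 (SE 0.34), or -0.27 without hypoxia 1 and -0.93 without hypoxia 3. Only hypoxia 1 and hypoxia 2 lay below the normoxia fish. hspa1b was 6.80, 6.80 and 6.96 in hypoxia against 6.44, 6.85 and 6.57 in normoxia, a difference of 0.23 with a 95% interval of -0.19 to 0.65. HSP70 genes are close copies of one another, and the sources used here do not say how far the probes tell them apart.

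HSP110 proteins, which release ADP from HSP70, had lower means in 3 of 3 genes, within their spread. Lower means were also found in 61% of all genes and 76.8% of those above the median level. hspa4b was 8.63, 9.12 and 9.36 in hypoxia against 9.57, 9.01 and 9.54 in normoxia, a difference of -0.34 (SE 0.25). hspa4l was 9.41, 9.46 and 9.77 against 10.14, 9.15 and 10.18, where normoxia 2 was the lowest fish of all, and its difference went from -0.28 to -0.61 without that fish. hsph1, the gene of HSP105, was nearly level at 7.21 to 7.50 in hypoxia and 7.21 to 7.58 in normoxia. Its difference of -0.05 (95% interval -0.47 to 0.38) turned positive, to 0.09, with equal array medians or after quantile normalization.

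Among HSP90 genes the constitutive hsp90ab1 had the smallest spread. It was 11.43, 11.38 and 11.64 in hypoxia against 11.52, 11.35 and 11.47 in normoxia, a difference of 0.04 with a 95% interval of -0.36 to 0.43, or 0.26 after quantile normalization. The hsp90aa1 copies neighbour each other in the genome. hsp90aa1.2 was 8.93, 9.41 and 10.30 in hypoxia against 10.22, 9.66 and 10.19 in normoxia. Hypoxia 3 was the highest of the 6 fish and hypoxia 1 the lowest, so the difference of -0.48 (SE 0.34) moved to -0.85 without hypoxia 3. hsp90aa1.1, which in zebrafish serves myosin folding in skeletal muscle, was 6.87, 6.79 and 6.64 in hypoxia against 6.62, 6.73 and 6.24 in normoxia, a difference of 0.24 (SE 0.20). Skeletal muscle markers also leaned higher, with 13 of 15 above in hypoxia and a median difference of 0.17 (-0.01 without normoxia 3, 0.49 without normoxia 2), at mean levels of 6.78 to 7.07 in hypoxia and 6.35 to 7.34 in normoxia. unc45b, the myosin co-chaperone that works with this HSP90, had a difference of 0.33 (SE 0.22). The muscle markers had a mean level of 6.849, and in the nearest of the 10 bands of level 52.2% of all genes were lower in hypoxia. hspb6, the partner of contractile proteins, and the muscle-related hspb7 went the other way, at -0.86 and -0.73. The part of muscle RNA in any of these values was not tested.

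Co-chaperones of HSP70 and HSP90 had lower means in 5 of 6 genes, beside 61% of all genes and 76.8% of those above the median level. Their median log2 difference was -0.41 (-0.62 without normoxia 2, -0.24 without hypoxia 1, and also -0.24 after quantile normalization). fkbp4 encodes FKBP52, the immunophilin that joins HSP90 in steroid receptor complexes. It was 8.86, 9.34 and 9.81 in hypoxia against 10.46, 9.51 and 10.06 in normoxia. Hypoxia 3 lay above normoxia 2, so the groups overlapped, and the difference was -0.67 (SE 0.31, limma adjusted p = 0.72). st13, the gene of HIP, which steadies HSP70 on its client, was 8.35, 9.09 and 9.48 in hypoxia against 9.90, 9.36 and 9.60 in normoxia, a difference of -0.65 (SE 0.29). Hypoxia 1 was by far the lowest, and the difference was -0.34 without it. chordc1b, a gene of the CHORD family that binds HSP90, was 6.74, 7.20 and 7.26 in hypoxia against 7.82, 7.29 and 7.63 in normoxia. Its groups just failed to touch, with a difference of -0.51 (SE 0.22, limma adjusted p = 0.72).

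The adaptor stip1 (HOP), which passes clients from HSP70 to HSP90, had a difference of -0.30 (SE 0.28), which was 0.02 with array spread as a covariate. ahsa1b (AHA1), which speeds the ATPase of HSP90, had one of -0.26 (SE 0.22). bag3, a nucleotide exchange factor that heat shock factor 1 induces and that steers clients to autophagy, was 8.78, 9.25 and 9.24 in hypoxia against 9.30, 8.99 and 8.83 in normoxia. Its difference of 0.05 (95% interval -0.43 to 0.53) was the one positive value among the co-chaperones. In each of the 6 co-chaperone genes hypoxia 1 was the lowest fish.

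HSP40 genes, whose products bring clients to HSP70 and start its ATPase, divided evenly into 3 lower and 3 higher, with a median log2 difference of -0.03. dnaja1 had the widest spread of any member, at 7.45, 7.57 and 8.85 in hypoxia against 9.36, 7.72 and 8.76 in normoxia. The fish fell into a low set of hypoxia 1, hypoxia 2 and normoxia 2 and a high set of the other 3, and the difference of -0.66 (SE 0.47) was -1.10 without hypoxia 3 and -0.28 without normoxia 1. It was -0.04 with array spread as a covariate. dnaja2a had a difference of -0.20 and dnajb1a one of -0.29. dnajb1b, the dim copy of the main heat-inducible HSP40, had rows at 4.26 to 5.59 and 5.97 to 6.89 and a difference of 0.24. dnajb4 was 8.0, 8.60 and 9.06 in hypoxia against 8.63, 8.33 and 8.25 in normoxia. dnajb5 was 7.13, 7.73 and 8.22 against 8.07, 7.41 and 7.15. In both of these genes hypoxia 3 was the highest of the 6 fish, and their differences of 0.15 each became -0.10 and -0.11 without it.

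Mitochondrial chaperones had lower means in 3 of 3 genes, beside 61% of all genes and 76.8% of those above the median level. Their median log2 difference was -0.25. hspa9, the gene of mortalin, which pulls proteins into the mitochondrion and folds them there, was 9.19, 9.42 and 10.21 in hypoxia against 9.94, 9.61 and 10.03 in normoxia. Hypoxia 3 was the highest fish, and the difference of -0.25 (SE 0.28) became -0.56 without it and -0.03 after quantile normalization. hspd1 (HSP60) was 7.80, 7.98 and 8.24 in hypoxia against 8.19, 8.07 and 8.35 in normoxia, a difference of -0.20 (SE 0.19). hspe1 (HSP10), the neighbour of hspd1 in the genome, had 2 rows. The brighter was 7.17, 7.37 and 7.63 in hypoxia against 7.92, 7.65 and 7.98 in normoxia, so its groups were narrowly apart. The dimmer was 6.38, 6.39 and 5.86 in hypoxia against 6.36, 6.20 and 6.77 in normoxia, and there the groups overlapped. Both rows were lower in hypoxia, with differences of -0.46 and -0.23, and their mean gave -0.35 (SE 0.19, limma adjusted p = 0.722) with groups that did not overlap. The median of these 3 genes was -0.38 without normoxia 2, -0.09 without hypoxia 1 and -0.03 after quantile normalization.

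The copies of serpinh1, which encodes the collagen chaperone HSP47, also parted. serpinh1a was 6.41, 6.37 and 6.95 in hypoxia against 7.61, 6.98 and 7.77 in normoxia. Every hypoxia value lay below every normoxia value, though hypoxia 3 and normoxia 2 were close, and the difference was -0.88 (SE 0.26, limma adjusted p = 0.72), or 1.84-fold lower. It ran from -1.11 to -0.72 with 1 fish left out and was -0.80 after quantile normalization. serpinh1b was 6.98, 7.11 and 7.57 in hypoxia against 7.63, 7.00 and 6.65 in normoxia, with overlapping groups and a difference of 0.13 (SE 0.28). Fibroblast and meningeal markers were mixed, 7 of 11 being higher, with a median difference of 0.07 (-0.08 without hypoxia 1, 0.20 without normoxia 2) and mean levels of 7.10 to 7.24 in hypoxia and 7.10 to 7.39 in normoxia. Among them dcn, the gene of the collagen-binding decorin, had the lowest difference at -0.95, and lum the next at -0.22. The dcn values were 8.70, 9.12 and 9.31 in hypoxia against 10.09, 9.49 and 10.39 in normoxia. The collagen genes of this list had differences from 0.02 in col1a2 to 0.17 in col5a1, with col1a1a at 0.08.

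Of the heat shock factors, hsf2 had the largest difference of any member. hsf2, which is known to bind heat shock elements together with HSF1 and to act in development, was 8.49, 8.88 and 8.34 in hypoxia against 10.11, 8.90 and 9.49 in normoxia. The highest hypoxia value and the lowest normoxia value were 8.88 and 8.90, so the groups were apart but touching. The means were 8.57 ± 0.28 and 9.50 ± 0.61 (SD, n = 3 each). The difference of -0.93 (SE 0.30, limma adjusted p = 0.72) makes hypoxia 1.91-fold lower. It was -1.23 without normoxia 2, -0.63 without normoxia 1 and -0.71 after quantile normalization. hsf1, the main switch of the heat shock response, was 9.63, 9.86 and 10.02 in hypoxia against 10.34, 9.71 and 10.05 in normoxia. Its difference of -0.20 (95% interval -0.69 to 0.29) was 0.03 after quantile normalization.

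By fish rather than by group, hypoxia 1 had the lowest value of the 6 fish in 19 of the 35 members, where it was lowest in 25.9% of all genes and 39.9% of those above the median level. Normoxia 1 had the highest in 17 members, against 40.4% of all genes and 59.9% of those above the median level. It had the lowest in 3 members, against 19.6% and 4.28%. Hypoxia 1 lay below all 3 normoxia fish in 24 members and hypoxia 2 in 16. Hypoxia 3 did so in 7 and lay within the normoxia range in 22. Those 24, 16 and 7 of 35 stand beside 34.7%, 27.4% and 21% of all genes. Among genes above the median level the shares were 49.4%, 33.7% and 20.6%. Normoxia 2 was the lowest normoxia fish in 25 of the 35 members. It held that place in 48.2% of all genes and 71.8% of those above the median level. Averaged over the 35 members, the deviation from each gene's own mean was -0.33 in hypoxia 1, -0.11 in hypoxia 2, 0.08 in hypoxia 3, 0.30 in normoxia 1, -0.10 in normoxia 2 and 0.17 in normoxia 3. Genes above the median level gave -0.22, -0.09, 0.03, 0.30, -0.14 and 0.12 in the same fish.

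**Figure D3:**
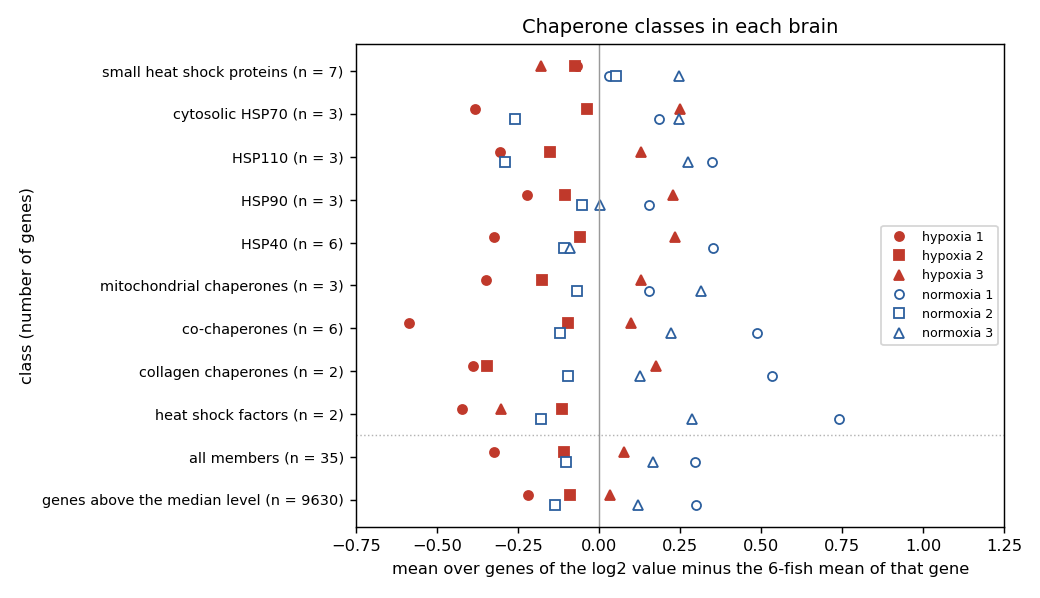
Mean over the genes of each class of the log2 value minus that gene's mean over the 6 fish (horizontal axis), for each fish, with filled red symbols for hypoxia, open blue symbols for normoxia and the bottom lines for all 35 members and for all genes above the median level. In 8 of the 9 classes the groups overlap, and the order of the fish over all members resembles that over all genes above the median level.

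Set side by side, the classes ordered the fish differently. Small heat shock proteins were the 1 class of 9 whose class means did not overlap, at -0.07, -0.08 and -0.18 in hypoxia 1, 2 and 3 and 0.03, 0.05 and 0.25 in normoxia 1, 2 and 3. The gap between the groups, from -0.07 to 0.03, was narrower than the range within either. In HSP40 genes hypoxia 3 was at 0.23 and normoxia 2 and 3 at -0.11 and -0.09. In HSP90 genes hypoxia 3, at 0.23, was the highest fish. In mitochondrial chaperones normoxia 2, at -0.07, lay below hypoxia 3, at 0.13. The class medians of the difference ran from -0.56 for the heat shock factors and -0.41 for the co-chaperones through -0.28 for HSP110, -0.25 for mitochondrial chaperones and -0.23 for small heat shock proteins to 0.03 for cytosolic HSP70 and 0.04 for HSP90. The cytosolic HSP70 median was -0.33 without normoxia 2 and 0.21 without normoxia 3, and that of the heat shock factors was -0.33 without normoxia 1. The HSP110 median was -0.52 without normoxia 2, -0.10 without normoxia 3 and 0.05 with array spread as a covariate. Classes of 2 to 7 genes chosen with results known were given no test.

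Level on the array went with the direction of the difference, among chaperones as among all genes. With all genes cut into 10 bands of equal size by mean level, the median difference went from 0.10 in the dimmest band, at a mean level of 5.28, to -0.20 in the brightest, at 10.06. Of the 23 members above the median level of 7.40, 18 were lower and 5 higher in hypoxia, with a median of -0.28. Among all genes above that level 76.8% were lower, with a median of -0.17. Of the 12 members at or below it 6 were lower and 6 higher, with a median of 0.04. Among all genes at or below it 45.3% were lower, with a median of 0.03. The brightest of the 10 bands held 11 of the members. cryaba, dnajb4 and dnajb5 lay furthest above the median of genes of their level. hsp90ab1, hspa8 and bag3 were among the other members above it, while hsf2, hspb6 and serpinh1a lay furthest below it. Whether the unequal array spread sets this slope was not tested. Taking it as a covariate moved the member median from -0.25 to -0.08 and left hspb6 at -0.64, hsf2 at -0.64 and serpinh1a at -0.62.

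**Figure D4:**
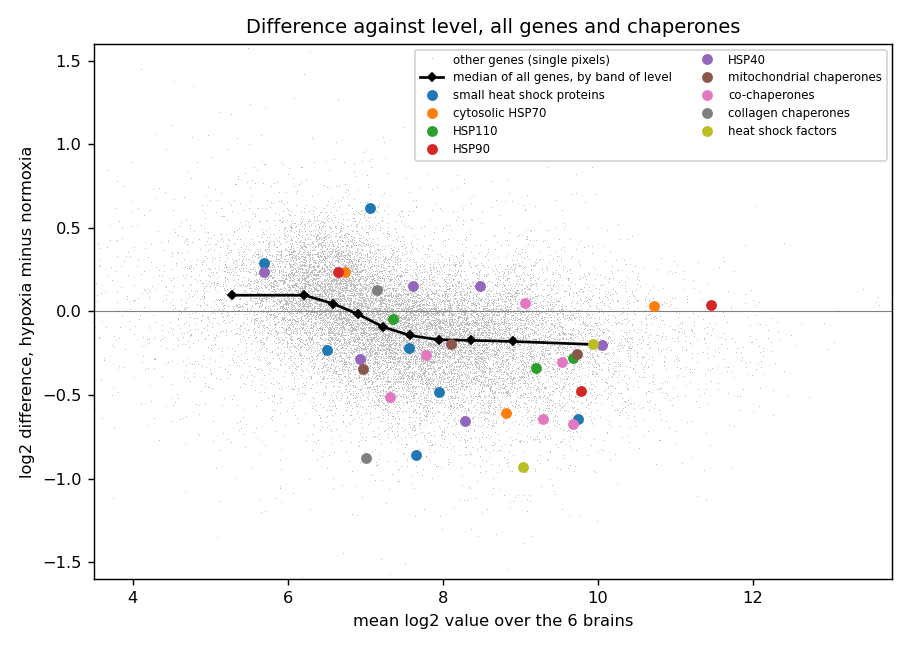
Log2 difference between hypoxia and normoxia (vertical axis, from -1.6 to 1.6, with the few genes beyond not drawn) against mean log2 value over the 6 brains (horizontal axis) for all genes as grey pixels and the measured chaperones as coloured dots by class, with a black line for the median of all genes in each of 10 bands of level. The line goes from 0.10 at the dim end to -0.20 at the bright end, and the chaperones scatter around and below it.

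Duplicated genes allow a comparison within each brain, since a shift of the whole array cancels between the copies. The 5 pairs with a shared name and both copies among the measured members were compared after the values had been seen. In each of them the copies had differences of opposite sign with all fish and rows averaged. The sign was not firm where a difference was near 0. hspa8 was at 0.03, but its brighter row was at -0.10, the side of hspa8b, and the gene was at -0.33 without normoxia 2. serpinh1b was at 0.13, and at -0.10 without normoxia 3. Members with a copy outside the member list were not paired. Of these, chordc1b was at -0.51 and chordc1a at -0.45, and dnaja2a at -0.20 and dnaja2b at -0.06. ahsa1b was at -0.26 and ahsa1a at 0.09. cryaba minus cryabb was -0.29, -0.19 and -0.53 in hypoxia against -2.38, -0.61 and -1.32 in normoxia, so that cryaba stood higher relative to cryabb in every hypoxia brain. The shift was 1.1 log2 units, or 0.63 without normoxia 1. Its exact two-sided permutation p was 0.1, and 0.25 after Benjamini-Hochberg adjustment over the 5 pairs. A p of 0.1 is the smallest that 3 against 3 fish allow, and any groups that are apart give it. Since the pairs were taken with their values seen, the permutation p values given here are description only. serpinh1a minus serpinh1b was -0.57, -0.74 and -0.62 in hypoxia against -0.02, -0.02 and 1.12 in normoxia. Here too the groups were apart, by -1.003 on the log2 scale, with the same exact permutation p of 0.1 and an adjusted 0.25, and the shift was -0.62 without normoxia 3. The groups overlapped for hspa8 minus hspa8b (0.64, exact permutation p = 0.2), hsp90aa1.1 minus hsp90aa1.2 (0.71, exact permutation p = 0.3) and dnajb1a minus dnajb1b (-0.52, exact permutation p = 0.4). Array spread does not cancel between copies that lie at unequal levels on the array, so its part in these shifts was not removed.

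**Figure D5:**
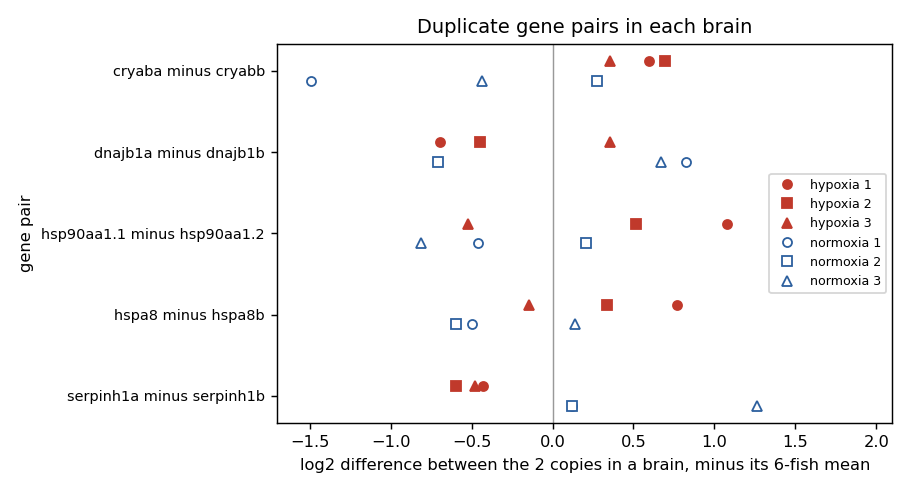
Log2 value of one copy minus that of the other in each brain, with the mean over the 6 fish taken off (horizontal axis), for 5 duplicated chaperone pairs, with filled red symbols for hypoxia and open blue symbols for normoxia. The groups are apart for cryaba minus cryabb and for serpinh1a minus serpinh1b, where normoxia 1 and 2 coincide, and overlap for the other 3 pairs.

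The rest of the chaperone network was read from a list of 99 further genes, of which 89 were measured. Lower means were found in 71 (79.8%), where 61% of all genes and 76.8% of those above the median level were lower. Higher means were found in 17, and 1 gene was level. The median log2 difference was -0.24, or -0.10 without normoxia 1, and 0 passed in limma. At an unadjusted p under 0.05 there were 4, all lower (ptges3b, sugt1, pfdn5 and dnajc28), beside 5.76% of all genes lower at that p. All 13 measured subunits of the cytosolic chaperonin TRiC and of prefoldin, which fold and deliver actin and tubulin, were lower, with differences from -0.59 to -0.11 and a median of -0.24 (-0.43 without normoxia 2, -0.16 without hypoxia 1). Their mean log2 level was 8.61, where most genes lean lower as given above. Further HSP40 genes were lower in 27 of 31, with a median of -0.25 (-0.08 without normoxia 1), and further mitochondrial chaperones and proteases in 9 of 11, with a median of -0.24 (-0.09 without hypoxia 2). Further HSP70 and nucleotide exchange genes were lower in 9 of 10, with a median of -0.245. These shares too stand beside the 61% and 76.8% of lower means among all genes and among those above the median level. The remaining parts of the list were mixed. Further small heat shock proteins were lower in 2 and higher in 3, with a median of 0.12 (-0.035 without normoxia 1). Genes of heat shock factor regulation were lower in 2 and higher in 2, with a median of -0.03. Further HSP90 co-chaperones were lower in 9 and higher in 5 of 15, with a median of -0.08. These co-chaperones held both extremes of the whole list. ptges3b, a copy of the HSP90 co-chaperone gene p23, was 6.60, 7.04 and 6.55 in hypoxia against 7.75, 7.39 and 7.72 in normoxia. Its groups did not overlap, and its difference of -0.89 (SE 0.21, limma adjusted p = 0.72) ran from -1.04 to -0.80 with 1 fish left out.

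The muscle-related small heat shock gene hspb7 was the second lowest of the list at -0.73 (SE 0.43), with overlapping groups. At the other end, fkbp5, an HSP90 immunophilin induced by glucocorticoids, was 10.31, 10.72 and 11.22 in hypoxia against 7.27, 10.43 and 10.29 in normoxia. Its difference of 1.42 (SE 0.72, limma adjusted p = 0.72) rested on normoxia 1 and was 0.39 without it. hsf5, a heat shock factor named for its similarity to the others, came next at 0.42 (SE 0.26).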

How the data were processed

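The authors deposited 1 log2 value per array row for each fish. Per the series' design text these were made by RMA background correction followed by quantile normalization. The tools named in the submitters' processing notes are RMA and Affymetrix Expression Console, without versions. Per the labels' protocols, RNA needed an integrity number over 7.0, and amplified cDNA from 300 ng was hybridised for 16 h at 45 °C. That the deposited values are on a log2 scale was judged from their range of 1.62 to 14.34. Their array medians still ran from 6.28 to 6.60.

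The platform annotation gave a single gene to 20806 of the 75212 rows and several genes to 855, and 53551 are unnamed here. Rows of a gene were averaged. Groups came from the sample titles. Hypoxia and normoxia were compared with limma 3.58.1 under R 4.3.3, using eBayes after lmFit on the 6 arrays without covariates or a filter on dim genes, with Benjamini-Hochberg adjustment over 19260 genes and a threshold of 0.05, after the procedure had been tested on simulated data. Members, classes, the wider list and marker lists were chosen with earlier results of these data known. All 40 members were to be named, and of the wider list the 2 highest and 2 lowest differences. The other genes of that list and the markers were named after their values were seen. Alternatives were a replicate block, each fish left out, both fish numbered 3 left out, equal array medians, quantile normalization, array spread as a covariate, the brightest row per gene, a filter on dim genes, an intensity trend, robust moderation and a threshold of 0.10. No sequences of the probes, promoters or proteins were used here.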

Additional observations from a re-analysis of the deposited data

How the results depend on the processing

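The count of chaperone members past the threshold, and that of the wider list, was 0 under each alternative run. With the replicate block the smallest adjusted limma p of a member was 0.83. The deviations of same-numbered fish had correlations of -0.336, 0.10 and 0.196, and those of unlike-numbered fish ran from -0.471 to 0.417. With 3 fish per group such values cannot decide whether the numbers mark pairs. Outside the replicate block the numbers were used as names only. With 1 fish left out, class medians of the log2 difference ran from -0.345 to -0.21 for small heat shock proteins and from -0.3325 to 0.2083 for cytosolic HSP70. The small heat shock median was -0.0933 with equal array medians and -0.36 over genes with a mean of 6 or more. After quantile normalization the HSP90 median was 0.22 and the mitochondrial one -0.0314, and the HSP110 median was 0.0518 with array spread as a covariate.

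Signs of small differences changed as well. With 1 fish left out, the range was -0.33 to 0.30 for hspa8, -0.13 to 0.0533 for hsph1, -0.06 to 0.21 for bag3, -0.0417 to 0.0883 for hsp90ab1, -0.10 to 0.43 for dnajb4, -0.11 to 0.43 for dnajb5 and -0.10 to 0.40 for serpinh1b. Without both fish numbered 3, hsph1 was -0.145, hsp90ab1 was -0.03, dnajb4 -0.18, dnajb5 -0.31, bag3 -0.13 and serpinh1b -0.27. hsph1 was 0.0933 with equal array medians and 0.0917 after quantile normalization, which also gave 0.0119 for dnaja2a and 0.0265 for hsf1. With array spread as a covariate hspa4l was 0.0518, hsph1 0.0772, dnajb1b -0.12, stip1 0.0181 and hsf1 0.0168. From the brightest row hspa8 was -0.10. The causes were not tested. Arrays of 3 fish per group limit what could be detected, and hspb9 and dnajb1b lie below a mean log2 value of 6.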

Other observations

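The inducible HSP70 genes appeared only on rows that the platform annotation joins to several of them, so these values belong to no single gene and were chosen after they were seen. A row joined to hsp70l, hsp70.1, hsp70.2 and hsp70.3 was flat at 5.77 to 5.82 in all 6 fish. It lies below a log2 value of 6, and such a dim row cannot show whether these genes changed. A row joined to hsp70l and hsp70.3 was 7.37, 6.91 and 7.18 in hypoxia against 6.52, 7.58 and 6.98 in normoxia. A second row joined to the same genes was 7.46, 7.90 and 8.33 in hypoxia against 8.87, 7.29 and 8.75 in normoxia. The fish at the extremes traded places between these rows, since normoxia 2 was the highest on the former and the lowest on the latter, and normoxia 1 the reverse. The groups overlapped on all 3 rows. A row joined to hspa4a and zcchc10 was 7.06, 7.16 and 7.81 in hypoxia against 8.03, 7.11 and 7.57 in normoxia.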
